A study of Arabidopsis thaliana with 9 samples.

Results

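UGT genes encode glycosyltransferases that move a sugar from a UDP-sugar onto small molecules such as hormones, flavonols, phenolic acids and foreign compounds. Attaching the sugar usually makes the molecule more soluble, stores it in a reversible form or ends its activity, and the plant family expanded largely through tandem duplication, so that close relatives often sit side by side. The 49 genes described here are those with a probe set annotated to a single gene whose symbol or listed synonym begins with UGT and a number, leaving out UGT78D2, UF3GT, AT4G14090 and AT1G01390, which belong with the anthocyanin genes or were set aside with them. Of the 13355 genes named on the array, 49 met this rule. Each had 1 probe set, so no choice between probe sets was needed, and none of the 49 probe sets was of the type that can detect several similar transcripts. In 46 cases the platform annotation itself used a UGT symbol, and the other 3 are listed there as GT72B1 (UGT72B1), SGT (UGT80A2) and AT5G54010 (UGT79B6). RefSeq holds 64 protein-coding genes with a UGT name, so the 49 are only part of the family. Among those not measured here were UGT74F2, UGT73C5, UGT73C6 and UGT84A2. Measured means, here and for the gene lists below, that a probe set was annotated to that gene alone. Probe sets annotated to several genes or to none were not assigned, so the array may still hold probes for the others.

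The arrays hold RNA of whole Arabidopsis thaliana seedlings in the Landsberg erecta (Ler) accession. The 3 genotypes were shl-2 mutants, ebs mutants and wild type, labelled Ler, each with 3 independent biological pools hybridized to 1 array apiece. Plants of all genotypes were 18 days old, raised on solid MS medium with 8 h light and 16 h darkness per day, and had no other treatment. EBS and SHL are related proteins that bind modified histones and keep flowering repressed; each mutation stands here as 1 allele, and the source text of the shl-2 samples writes the allele as shl-2-2. Values are log2 signals made by the authors with RMA, which corrects background, equalises the arrays and summarises the probes of a set, so a difference of 1 is a 2-fold change. They are not scaled per transcript length, so levels of different genes are not compared as amounts.

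SHL, annotated as SHL1, read 7.46, 6.91 and 6.52 in shl-2, 8.08, 7.82 and 7.81 in ebs, and 7.88, 8.02 and 7.88 in Ler, a log2 fold change of -0.96 in shl-2 against Ler (SE 0.19, limma adjusted p = 0.0182). No probe set was named for EBS, whose transcript was not analysed here. The leaf gene RCA, for Rubisco activase, read 14.34 on every mutant array and 14.30 to 14.38 in Ler. The root gene PYK10, for a root beta-glucosidase, read 12.12 to 12.50 in shl-2, 12.38 to 12.52 in ebs and 12.11 to 12.18 in Ler, and the root hair gene EXPA7 read 4.22 to 4.51 in shl-2, 4.39 to 4.76 in ebs and 4.16 to 4.55 in Ler; none of these 3 genes passed the test in either mutant. They were the only 3 of 17 leaf, root and flower markers with a probe set annotated to that gene alone. No flower marker had such a probe set. In whole seedlings, fewer cells of a type and less RNA per cell cannot be told apart.

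In shl-2, 8 of the 49 UGT genes were lower than in Ler and 0 were higher, by limma with Benjamini-Hochberg adjustment over all 22746 tested probe sets and a call at an adjusted p under 0.05. Among all tested probe sets 2.99% were called lower and 2.44% higher, so the share of UGT genes called lower, 16.3%, was above the share on the array. In ebs, 3 of the 49 were lower and 0 higher, a share of 6.12% against 1.47% of all probe sets called lower and 1.72% called higher. These counts changed when single arrays were left out. The count in shl-2 was 3 without Ler array 2 and 5 without Ler array 1 or 3 or any one shl-2 array. That in ebs was 0 without Ler array 2 or ebs array 3, 1 without Ler array 1 or ebs array 2, and 6 without shl-2 array 3. Shares of all probe sets called in these fits are not given here. Each fit also had fewer arrays for every probe set, and what moved the counts was not tested. The 3 genes called in ebs were among the 8 called in shl-2: UGT73C1, UGT76E11 and UGT74D1. At an unadjusted p under 0.05, 14 UGT genes were lower and 3 higher in shl-2, against 11.1% and 7.53% of all probe sets, and 12 were lower and 1 higher in ebs, against 10.2% and 6.77%. No set test was made on the family, and both mutants were compared with the same Ler arrays. The members were chosen with earlier results of these data known, so their share of calls is not independent evidence about the family.

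The median log2 fold change of the 49 genes was -0.11 in shl-2 and -0.07 in ebs, beside medians of -0.03 and -0.02 over all probe sets. The fold changes ran from -1.51 to 0.36 in shl-2 and from -0.90 to 0.54 in ebs. Values were negative for 34 of the 49 in shl-2 and for 31 in ebs, which is 69.4% and 63.3%, against 57.5% and 56.0% of all probe sets.

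**Figure D1:**
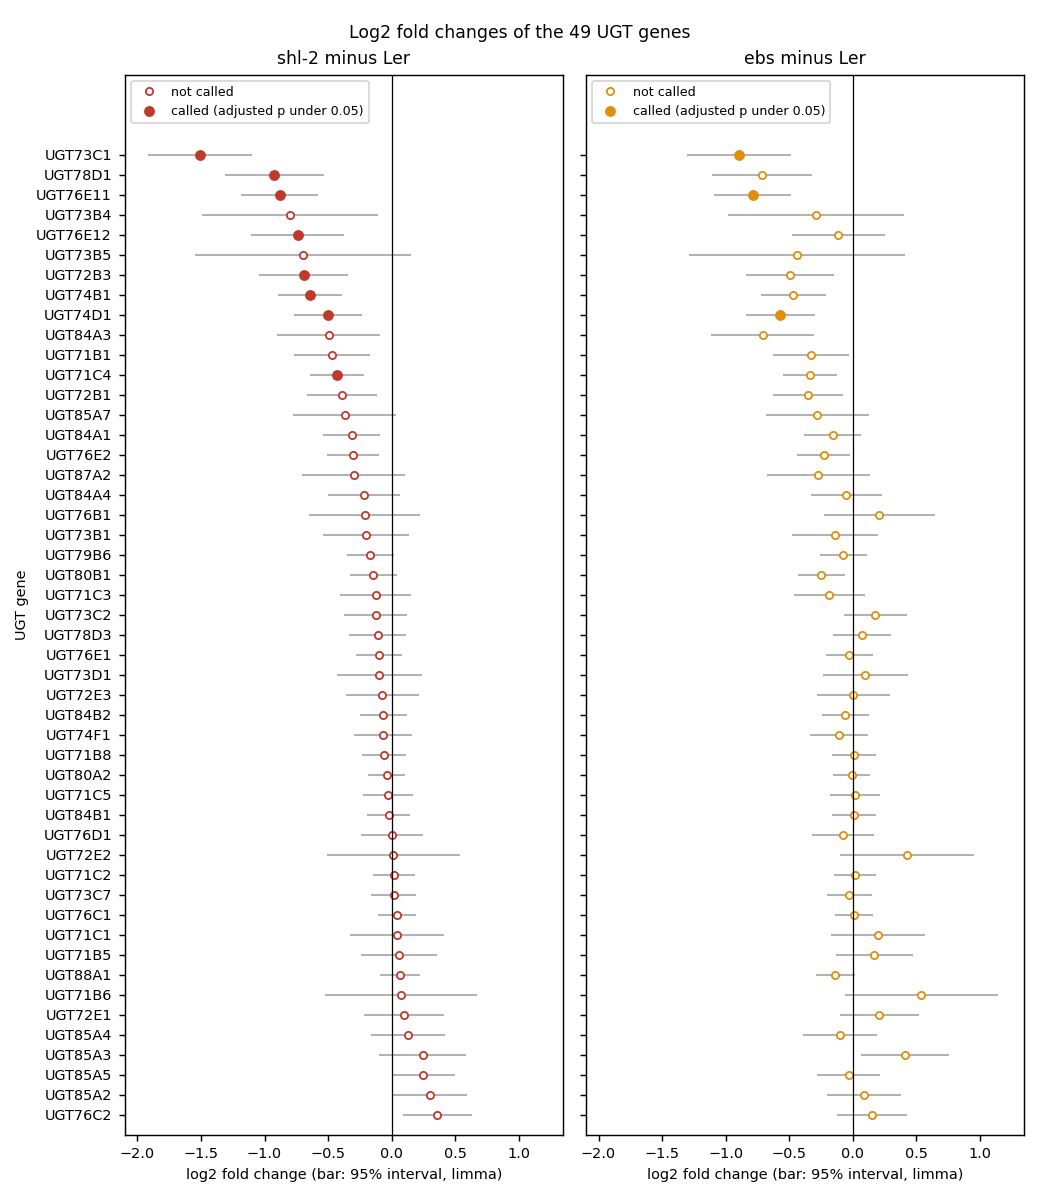
Log2 fold changes (horizontal axis) of the 49 UGT genes in shl-2 minus Ler (left) and ebs minus Ler (right), ordered from the lowest in shl-2 at the top; bars are 95% intervals from limma and filled points passed the test. The 8 filled points in shl-2 and the 3 in ebs all lie left of 0, and the lowest gene in both panels is UGT73C1.

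UGT73C1, known to glucosylate cytokinins in vitro and also to act on the explosive TNT, had the lowest fold change of the family in both mutants with all arrays fitted. It read 5.95, 5.78 and 5.72 in shl-2, 6.69, 6.14 and 6.45 in ebs, and 7.54, 7.53 and 6.90 in Ler. All shl-2 arrays lay below all ebs arrays, and all ebs arrays below all Ler arrays. The transcript was 2.84-fold lower in shl-2 than in Ler (log2 fold change -1.51, SE 0.18, limma adjusted p = 0.00153) and 1.86-fold lower in ebs (-0.90, SE 0.18, adjusted p = 0.0306). The shl-2 call held whichever array was left out, with a highest adjusted p of 0.00970. The ebs call ended without Ler array 1 or 2, ebs array 2 or 3 or shl-2 array 2, with fold changes of -0.75 to -0.91 and a highest adjusted p of 0.124, and without Ler array 1 or ebs array 2 the ebs values of UGT78D1 and UGT76E11 were slightly lower than that of UGT73C1. The ebs call also ended when the shl-2 arrays were kept out of the fit (adjusted p = 0.0726).

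UGT76E11, which has been reported to glucosylate flavonoids, was lower in both mutants by nearly the same amount. It read 7.68, 7.54 and 7.34 in shl-2, 7.80, 7.57 and 7.47 in ebs, and 8.38, 8.64 and 8.18 in Ler. The arrays of the mutants intermingled and lay below every Ler array. The log2 fold changes were -0.88 in shl-2 (SE 0.14, limma adjusted p = 0.00504) and -0.79 in ebs (SE 0.14, adjusted p = 0.0144). In shl-2 the call held in all leave-one-out fits (highest adjusted p = 0.0220). In ebs it ended without Ler array 2 (log2 fold change -0.67, adjusted p = 0.0603) or ebs array 3 (-0.71, 0.0634).

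UGT74D1, which glucosylates the auxin indole-3-acetic acid and its oxidised form, was the remaining gene called in both mutants. Its values were 8.19, 8.22 and 7.97 in shl-2, 8.32, 7.95 and 7.90 in ebs, and 8.63, 8.73 and 8.52 in Ler. Again no mutant array reached the lowest Ler array. The log2 fold changes were -0.50 in shl-2 (SE 0.12, limma adjusted p = 0.0414) and -0.57 in ebs (SE 0.12, adjusted p = 0.0358). Both calls were close to the threshold. That in shl-2 ended without any one Ler or shl-2 array (fold changes -0.42 to -0.55, highest adjusted p = 0.144), with array weights (0.0549) and when adjusted over 1 probe set per named gene (0.0507). That in ebs ended without any one Ler array, ebs array 2 or 3 or shl-2 array 1 or 2 (fold changes -0.49 to -0.62, highest adjusted p = 0.135), and without the shl-2 arrays altogether (0.0640).

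UGT78D1 encodes the flavonol rhamnosyltransferase, which decorates flavonols rather than anthocyanins. It read 7.38, 7.88 and 7.27 in shl-2, 7.80, 7.94 and 7.42 in ebs, and 8.26, 8.47 and 8.57 in Ler. Every mutant array was below every Ler array. The log2 fold change was -0.92 in shl-2 (SE 0.18, limma adjusted p = 0.0138) and -0.71 in ebs (SE 0.18, adjusted p = 0.0611). The shl-2 call ended without Ler array 2 or 3 or shl-2 array 1, with fold changes of -0.91, -0.85 and -0.86 and a highest adjusted p of 0.0610. The ebs value passed without shl-2 array 2 (adjusted p = 0.0350).

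UGT74B1 forms the glucose-sulphur bond of glucosinolates, the defence compounds of the cabbage family. It read 8.62, 8.81 and 8.32 in shl-2, 8.81, 8.69 and 8.78 in ebs, and 9.29, 9.15 and 9.24 in Ler. The Ler arrays lay close together and above all mutant arrays. In shl-2 the log2 fold change was -0.64 (SE 0.11, limma adjusted p = 0.00947), a call that held in all leave-one-out fits (highest adjusted p = 0.0387). In ebs it was -0.47 (SE 0.11, adjusted p = 0.0593). The ebs value passed without shl-2 array 2 or 3 (adjusted p = 0.0399 and 0.0171).

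UGT76E12 differed from the other 7 in its ebs values. It read 4.36, 4.08 and 4.17 in shl-2, 4.71, 4.66 and 5.12 in ebs, and 5.25, 4.92 and 4.66 in Ler. The ebs and Ler arrays overlapped, and the shl-2 arrays lay below both. The log2 fold change was -0.74 in shl-2 (SE 0.16, limma adjusted p = 0.0281) and -0.11 in ebs (SE 0.16, adjusted p = 0.791). The direct difference, shl-2 minus ebs, was -0.63 (95% interval -0.99 to -0.26, adjusted p = 0.143), so a difference between the mutants did not pass. The shl-2 call ended without Ler array 1 or 2 or shl-2 array 2 or 3 (fold changes -0.59 to -0.75, highest adjusted p = 0.0968).

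UGT72B3 read 6.64, 6.81 and 6.10 in shl-2, 6.81, 6.57 and 6.76 in ebs, and 7.23, 7.22 and 7.18 in Ler. Its Ler arrays were within 0.05 of each other, and shl-2 array 3 lay well below the other mutant arrays. The log2 fold change was -0.69 in shl-2 (SE 0.16, limma adjusted p = 0.0308) and -0.50 in ebs (SE 0.16, adjusted p = 0.129). The shl-2 call ended without any one Ler array, ebs array 1 or shl-2 array 1 (fold changes -0.68 to -0.76, highest adjusted p = 0.0976) and without the ebs arrays altogether (0.0716). Without shl-2 array 3 the shl-2 fold change was the smallest of the leave-one-out fits, -0.49, and the ebs value passed (adjusted p = 0.0173).

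UGT71C4 showed the smallest called difference. It read 8.40, 8.31 and 8.11 in shl-2, 8.37, 8.34 and 8.40 in ebs, and 8.59, 8.85 and 8.67 in Ler. All 6 mutant arrays were below the Ler arrays. The log2 fold change was -0.43 in shl-2 (SE 0.09, limma adjusted p = 0.0286) and -0.33 in ebs (SE 0.09, adjusted p = 0.0981). The shl-2 call ended without Ler array 2 or 3, ebs array 1 or shl-2 array 2 or 3 (fold changes -0.35 to -0.45, highest adjusted p = 0.104), and without the ebs arrays altogether (0.0759).

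**Figure D2:**
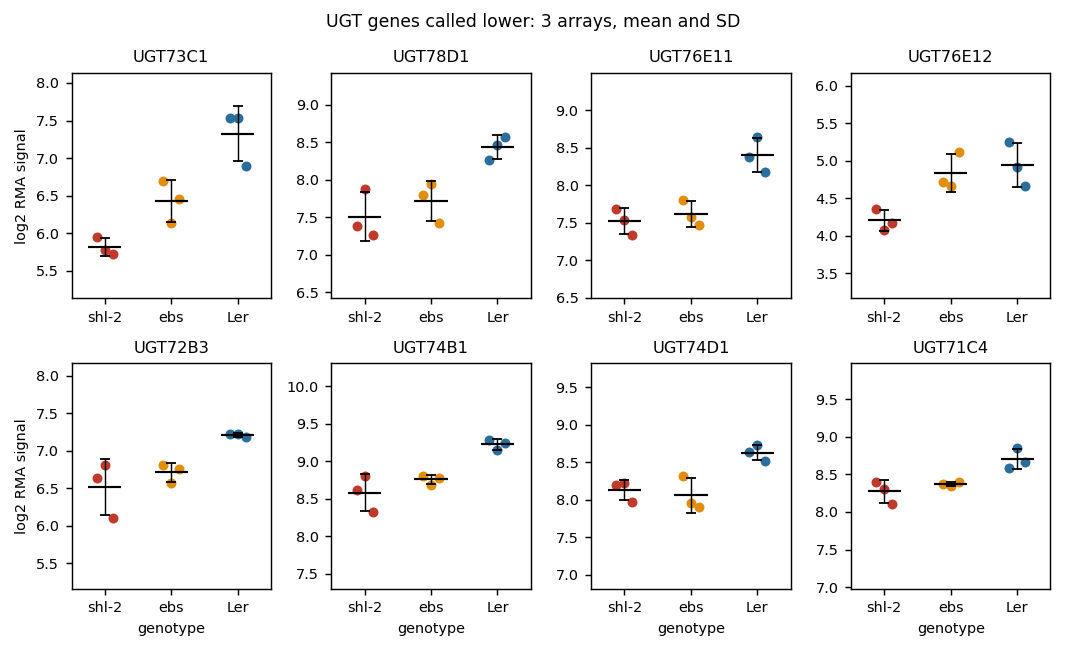
Log2 RMA signal (vertical axis, the same span of 3 in each panel) of the 8 UGT genes called lower, with 1 point per array, a line at the mean and a bar for the SD (n = 3 per genotype). The mutant points lie below the Ler points in all panels except the ebs points of UGT76E12.

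Set directly against each other, the mutants gave no called UGT gene. By limma 0 of the 49 genes were lower and 0 higher in shl-2 than in ebs, against 0.501% and 0.268% of all probe sets. At an unadjusted p under 0.05, 3 were lower, namely UGT76E12, UGT73C1 and UGT73C2, and 2 higher, namely UGT88A1 and UGT85A5, against 5.6% and 5.09% of all probe sets. UGT73C1 had a log2 difference of -0.61 (95% interval -1.02 to -0.20, adjusted p = 0.222). Intervals of the difference for the other 6 called genes included 0: -0.60 to 0.18 for UGT78D1, -0.40 to 0.21 for UGT76E11, -0.54 to 0.15 for UGT72B3, -0.43 to 0.08 for UGT74B1, -0.20 to 0.34 for UGT74D1 and -0.31 to 0.12 for UGT71C4. Gene by gene, the larger number of calls in shl-2 is therefore not shown to be a difference between the mutants. Across the family the values leaned lower in shl-2. The direct difference was negative for 36 of the 49 genes, 73.5% against 51.0% of all probe sets. Its median was -0.08, beside -0.003 over all probe sets. In leave-one-out fits the median of the 49 genes ran from -0.10 to -0.03, and it was smallest in size without shl-2 array 3. This lean was not tested.

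By what the enzymes act on, cytokinin glycosylation had 3 measured genes of 5 listed. UGT73C1 was lower in both mutants, whereas the cytokinin N-glucosyltransferase genes UGT76C1 and UGT76C2 did not pass. UGT76C2 read 6.81, 6.92 and 7.17 in shl-2, 6.70, 6.85 and 6.73 in ebs, and 6.36, 6.73 and 6.73 in Ler. Its log2 fold change of 0.36 in shl-2 (limma adjusted p = 0.139) was the highest of the family there, with shl-2 arrays above all Ler arrays. UGT76C1 stood at 0.04 and 0.01 in shl-2 and ebs. Of 17 listed genes for cytokinin breakdown and response, 2 were measured: ARR16, a type-A response regulator, fell by 0.72 on the log2 scale in ebs (adjusted p = 0.0279) and had a fold change of -0.34 in shl-2 (adjusted p = 0.240), and ARR15 had -0.16 in ebs and 0.01 in shl-2.

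Among 3 measured auxin glucosyltransferase genes of 8 listed, UGT74D1 was lower in both mutants, and UGT84B1 and UGT84B2 had log2 fold changes between -0.07 and 0.01. The mean signal of UGT84B2, 3.05, was below the lower quartile of all probe sets, 3.85, which leaves little room to show a decrease. For salicylate and related benzoates 4 of 7 listed genes were measured and 0 passed in either mutant by limma. These were UGT74F1 and UGT76D1, which glucosylate salicylate and dihydroxybenzoates, UGT71C3, which acts on methyl salicylate, and UGT76B1, which acts on isoleucic acid and salicylate; their values ran from -0.21 to 0.00 in shl-2 and from -0.18 to 0.21 in ebs. Of 2 listed brassinosteroid genes 0 were measured. The 3 measured abscisic acid genes, of 5 listed, did not pass either. UGT71B6 had the highest fold change in ebs, 0.54 (adjusted p = 0.349), which rested on readings of 4.53, 3.88 and 5.07 in ebs against 4.26, 3.86 and 3.74 in Ler, with overlapping arrays. UGT71B8 and UGT71C5 lay between -0.06 and 0.02 in both mutants.

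Of the 4 measured flavonol genes, from 6 listed, only UGT78D1 was called, in shl-2. This list did not include UGT76E11, described above as acting on flavonoids and called in both mutants. UGT78D3 (flavonol arabinosylation), UGT79B6 (a pollen flavonol glucosyltransferase) and UGT71C1 had log2 fold changes of -0.17 to 0.04 in shl-2 and -0.07 to 0.20 in ebs. The mean signals of UGT78D3, 3.15, and UGT79B6, 3.46, were below the lower quartile of all probe sets, 3.85, which leaves little room to show a decrease. Phenylpropanoid genes had 7 measured members of 8 listed and 0 calls in either mutant by limma. The hydroxycinnamate glucosyltransferase gene UGT84A3 read 8.65, 8.63 and 7.99 in shl-2, 8.40, 7.92 and 8.31 in ebs, and 8.99, 8.97 and 8.80 in Ler. No mutant array reached the Ler arrays, but the log2 fold changes of -0.50 (adjusted p = 0.166) and -0.71 (adjusted p = 0.0688) in shl-2 and ebs did not pass. UGT72B1, which conjugates chlorinated phenols and monolignols, had -0.39 (adjusted p = 0.107) and -0.35 (adjusted p = 0.169), and the monolignol glucosyltransferase genes UGT72E1, UGT72E2 and UGT72E3 ran from -0.07 to 0.10 in shl-2 and from 0.00 to 0.43 in ebs.

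Of the sterol glucosyltransferase genes, UGT80A2 was near Ler in shl-2 and ebs (-0.04 and -0.01). UGT80B1 had log2 fold changes of -0.14 and -0.25. All its ebs arrays lay below all Ler arrays, but it was not called (limma adjusted p = 0.157 in ebs). UGT76E1, which glucosylates hydroxyjasmonate, had the fold changes -0.10 and -0.03 at a mean signal of 3.12. UGT87A2, reported to influence flowering time through the repressor FLC, read 8.79, 8.39 and 8.09 in shl-2, 8.56, 8.12 and 8.68 in ebs, and 8.83, 8.70 and 8.64 in Ler. Its arrays overlapped between groups, and the log2 fold changes were -0.30 (limma adjusted p = 0.429) and -0.27 (adjusted p = 0.507) in shl-2 and ebs. Of 22 listed genes that supply UDP-sugars, 1 was measured: USP, for UDP-sugar pyrophosphorylase, at -0.04 and -0.05.

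In RefSeq's gene order, 28 of the 49 genes had another measured member beside them with at most 1 gene between, in 12 runs. A gene was called in shl-2 in 3 of these runs, and only the UGT76E12 and UGT76E11 pair had more than 1 call. Beside UGT73C1, its neighbour UGT73C2 read 3.28, 3.13 and 2.97 in shl-2, 3.28, 3.62 and 3.39 in ebs, and 3.13, 3.28 and 3.35 in Ler, with fold changes of -0.13 and 0.18 in shl-2 and ebs. The mean signal of UGT73C2, 3.27, was below the lower quartile of all probe sets, 3.85. On either side of UGT71C4, UGT71C5 had fold changes of -0.03 and 0.02 at a mean signal of 6.93, and UGT71C3 of -0.13 and -0.18 at 3.87.

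The pair UGT73B4 and UGT73B5, whose transcripts are known to respond to oxidative stress and pathogens, had large mean differences that did not pass. UGT73B4 read 5.69, 5.23 and 5.04 in shl-2, 6.02, 5.02 and 6.45 in ebs, and 6.21, 6.27 and 5.88 in Ler. UGT73B5 read 6.70, 5.92 and 5.66 in shl-2, 6.96, 5.38 and 6.72 in ebs, and 6.87, 6.94 and 6.56 in Ler. The shl-2 arrays of UGT73B4 all lay below its Ler arrays, and those of UGT73B5 overlapped with Ler. In both genes ebs array 2 was far below the other ebs arrays, and shl-2 array 1 above the other shl-2 arrays. Their fold changes in shl-2 were -0.80 (adjusted p = 0.196, SE 0.31) and -0.70 (adjusted p = 0.376, SE 0.38), and in ebs -0.29 and -0.44. Within genotypes the pooled SD was 0.59 for UGT73B5 and 0.48 for UGT73B4, the highest of the family, beside a median of 0.17 over the 49 genes and 0.12 over all probe sets.

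The 3 neighbouring UGT84A genes all had negative values, from -0.50 to -0.22 in shl-2 and from -0.71 to -0.05 in ebs, with 0 calls by limma. UGT84A1 read 4.53, 4.63 and 4.73 in shl-2, 4.62, 4.93 and 4.81 in ebs, and 4.98, 5.04 and 4.81 in Ler. Its log2 fold change in shl-2 was -0.31 (adjusted p = 0.115), with no overlap between shl-2 and Ler. In the run of UGT85A genes the direction was mixed: in shl-2 the values were -0.37 for UGT85A7, 0.30 for UGT85A2, 0.25 for UGT85A5 and 0.24 for UGT85A3, and none passed (lowest adjusted p = 0.248). UGT85A5 read 7.12, 7.41 and 7.11 in shl-2, 7.12, 6.90 and 6.77 in ebs, and 6.93, 6.92 and 7.04 in Ler, and UGT85A5 and UGT76C2 were the 2 members whose shl-2 arrays all lay above Ler.

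**Figure D3:**
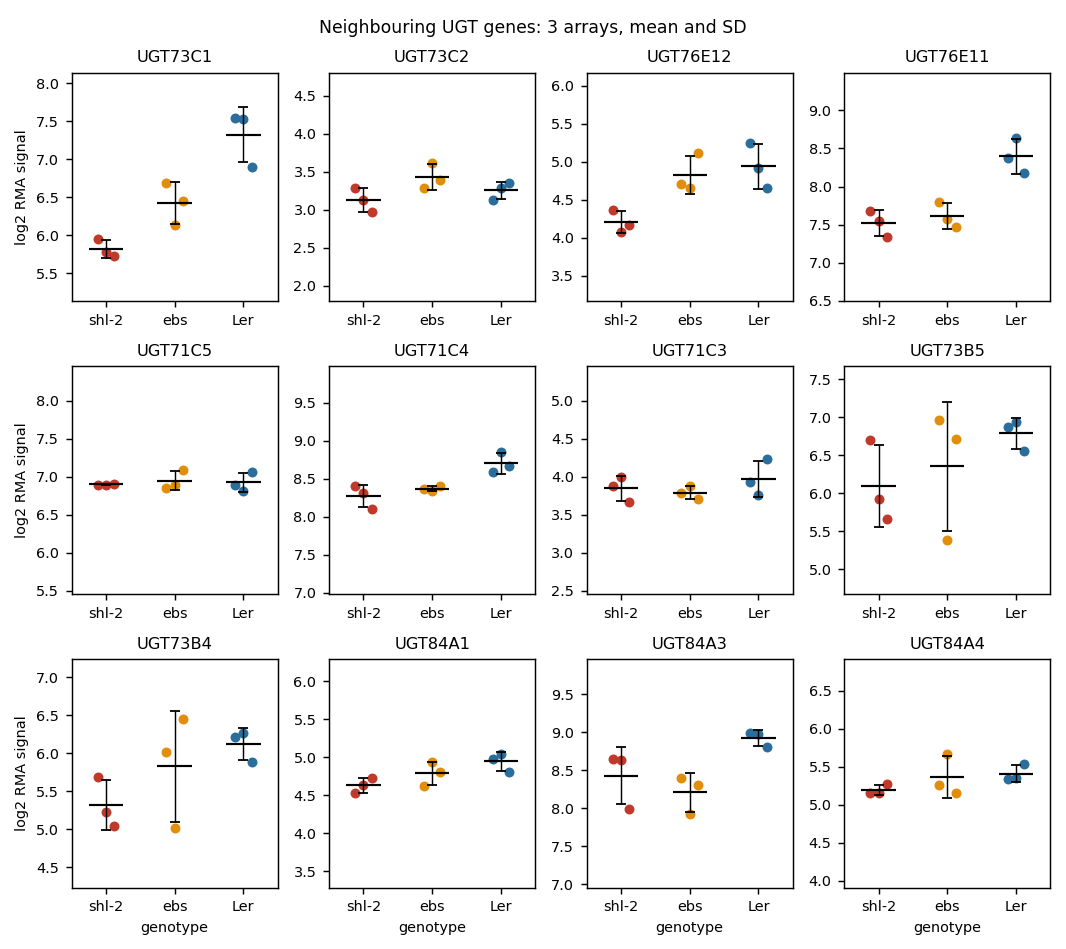
Log2 RMA signal (vertical axis, the same span of 3 in each panel) of UGT genes that neighbour each other, with 1 point per array, a line at the mean and a bar for the SD (n = 3 per genotype). UGT73C1 and UGT71C4 differ between genotypes where UGT73C2, UGT71C5 and UGT71C3 overlap, and 1 low ebs array (5.02 and 5.38) widens the bars of UGT73B4 and UGT73B5.

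Counting arrays rather than fitted values, 16 of the 49 genes had all shl-2 arrays below all Ler arrays and 2 had them above, against 12.6% and 7.94% of all probe sets. In ebs 13 had all arrays below Ler and 0 above, against 12.6% and 7.34%. Below Ler in this sense but not called in shl-2 was UGT71B1, among others, which read 6.26, 6.31 and 5.79 in shl-2, 6.42, 6.17 and 6.19 in ebs, and 6.65, 6.61 and 6.50 in Ler (log2 fold change in shl-2 -0.47, adjusted p = 0.0806). Within shl-2, array 3 gave the lowest reading for 28 of the 49 genes, 57.1%, against 33.5% of all probe sets, and within ebs array 2 did so for 23, 46.9%, against 29.7%. Within Ler, array 3 was lowest for 23 genes, 46.9%, against 27.1%. Without shl-2 array 3 the calls numbered 5 in shl-2 and 6 in ebs, without ebs array 2 they numbered 9 and 1, and without Ler array 3 they numbered 5 and 3. The matching shares of all probe sets are not given here, so these counts are not shown to be particular to the UGT genes.

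Most of the called genes had signals above the array's median. The mean signal over the 9 arrays ran from 3.05 for UGT84B2 to 10.3 for UGT88A1, which also reflects the probes of each set and gives no order of transcript amounts, and 24 of the 49 genes lay above 6.10, the median of all probe sets. Of these 24, 7 were called lower in shl-2 (29.2%) and 3 in ebs (12.5%), against 4.77% and 2.23% of all probe sets above that level. Of the 25 at or below it, 1 was called in shl-2, UGT76E12, and 0 in ebs by limma, against 1.21% and 0.712%. The median log2 fold change was -0.26 for the 24 genes in both mutants, and -0.07 and -0.03 for the other 25 in shl-2 and ebs. Next to UGT88A1 in signal were UGT74B1 at 8.86, UGT85A2 at 8.85 and UGT72E1 at 8.56, and next to UGT84B2 were UGT76E1 at 3.12, UGT78D3 at 3.15 and UGT73C2 at 3.27. UGT88A1 read 10.45, 10.39 and 10.36 in shl-2, 10.22, 10.26 and 10.12 in ebs, and 10.36, 10.37 and 10.28 in Ler, with log2 fold changes of 0.06 and -0.14 that did not pass.

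**Figure D4:**
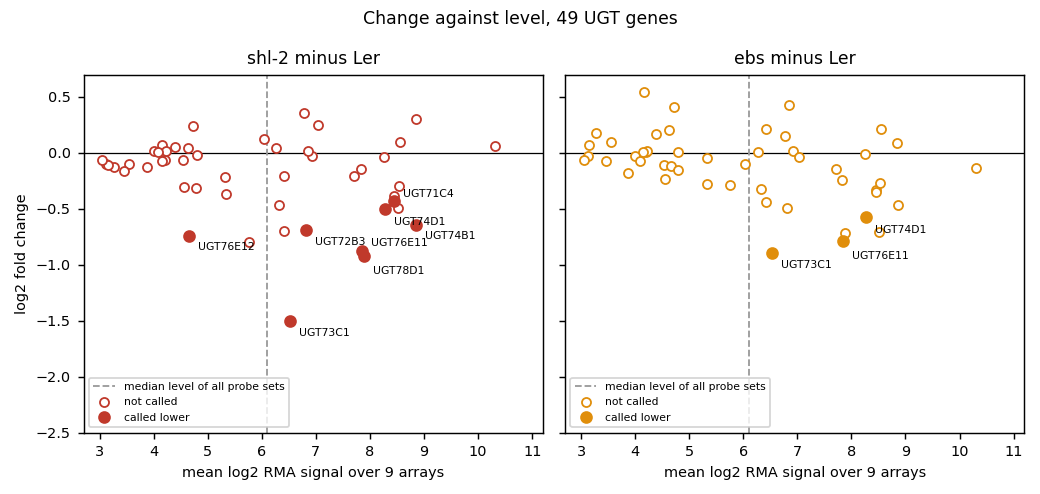
Log2 fold change (vertical axis) against the mean log2 RMA signal over 9 arrays (horizontal axis) for the 49 UGT genes, in shl-2 minus Ler (left) and ebs minus Ler (right); the dashed line is the median level of all probe sets, 6.10, and filled points were called lower. Of the filled points, 7 of 8 in shl-2 and 3 of 3 in ebs lie right of the dashed line.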

How the data were processed

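Each array's column holds a log2 signal for every probe set as the authors deposited it. The submitters' processing notes name RMA and the affy package; the sources used here give no version, filter or genome build. Labels describe 500 ng total RNA from complete plants, biotin labelling and 1 array per biological pool. Leaving out 64 AFFX controls, 22746 of 22810 probe sets were tested with no filter on low signals. Platform annotation named 1 gene for 13513, several for 503 and none for 8730; names were updated through Entrez identifiers to RefSeq TAIR10.1, which matched all 49 UGT genes and was used only for names and neighbours. No array pair was identical (0 pairs), array medians lay between 6.06 and 6.12, and 3 arrays per genotype limit precision.

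Genotype means were fitted to all 9 arrays in limma 3.58.1 (R 4.3.3; lmFit, contrasts.fit, eBayes), two-sided, with Benjamini-Hochberg adjustment over 22746 probe sets per comparison. The method was tested on simulated data with 200 changed genes. The outcome is not given here, and no call rests on it. Every UGT gene could be named; array values are given for called genes, their neighbours and members that stood out, the last chosen after their values were seen. Members and lists were chosen with earlier results of these data known. Alternatives were a replicate block, median centring, a second quantile normalization, leaving out the 30% of probe sets with the lowest signals, trended variance, array weights, fits of the compared groups only, adjustment over 1 probe set per named gene, and leaving out each array.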

Additional observations from a re-analysis of the deposited data

How the results depend on the processing

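No UGT gene was called higher in any comparison, or called between the mutants, under any of the 17 alternatives run. In shl-2 the number called lower ranged from 3 (without Ler array 2) to 9 across the leave-one-out fits, beside 8 with all arrays. In ebs it ranged from 0 (without Ler array 2 or ebs array 3) to 6 (without shl-2 array 3), beside 3. With array weights it was 7 in ebs. Shares of all probe sets called under the alternatives are not given here. The median log2 fold changes moved to -0.207 in shl-2 and -0.125 in ebs when dim probe sets were left out, which removed 11 of the 49 genes. With the replicate number as a block, 9 genes were lower in shl-2 and 4 in ebs, where UGT78D1 passed (adjusted p = 0.0305); same-numbered arrays correlated in their deviations at -0.285 to 0.460, with 7 of 9 pairs over 0.1 and both negative values among arrays numbered 3, and 5 of 9 arrays correlated best with their own number. Since not every pair was over 0.1, the numbers were not taken as pairs. Values that were not called changed sign in leave-one-out fits for UGT76E12 in ebs (-0.26 to 0.04, positive without Ler array 1) and, between the mutants, for UGT74D1 (-0.0083 to 0.20, negative without ebs array 3) and UGT72B3 (-0.34 to 0.012, positive without shl-2 array 3); the cause was not tested. In ebs UGT74B1 also passed with median centring, trended variance, array weights and a fit without the shl-2 arrays (adjusted p = 0.0245 to 0.0496), UGT72B3 in the last of these (0.0281), UGT71C4 and UGT78D1 with array weights (0.0478 and 0.0451), and UGT78D1 without shl-2 array 2 (0.0350). Some counts of calls, among them the 9 in shl-2 and the 6 and 7 in ebs, included a gene outside the 8 called with all arrays. Such genes were not followed by name. UGT73C1, UGT76E11 and UGT74B1 in shl-2 passed under all 17 alternatives. Choosing the dimmest probe set of a gene was not run, since each gene had 1 probe set. Scanner files were not used here, so background correction could not be varied, and signals below the lower quartile of 3.85 (6 genes) leave little room to show a decrease.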
